A study of Mus musculus with 6 samples.

Results

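Conjugation and aldehyde detoxification enzymes were examined in whole mouse lung after naphthalene, a compound that airway club cells turn into reactive epoxides and quinones. The genes were those whose symbol names a glutathione S-transferase (Gst classes a, k, m, o, p, t and z), a microsomal glutathione transferase (Mgst), a UDP-glucuronosyltransferase (Ugt), a sulfotransferase (Sult), an aldehyde dehydrogenase (Aldh), an epoxide hydrolase (Ephx), a flavin-containing monooxygenase (Fmo) or an aldehyde oxidase (Aox). The rule uses symbols alone and no measured value, though the set of enzyme families was proposed with earlier results of these data known. It gave 56 genes of the 16537 with a probe set annotated to exactly 1 symbol. They were 17 Gst, 3 Mgst, 2 Ugt, 5 Sult, 3 Ephx, 19 Aldh, 5 Fmo and 2 Aox genes, represented by 59 probe sets. All 56 entered the test, and no filter on low signal was applied.

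The 6 samples were 3 arrays of wild-type lung and 3 arrays labelled Falcor-null, that is, lacking by genotype the long non-coding RNA gene Falcor, a neighbour of Foxa2. Every sample came from whole lung, had received naphthalene and carried one strain label, a mix of CD1 and C57Bl6. By the labels the wild-type samples were taken 28, 29 and 30 days after naphthalene and those labelled Falcor-null 31, 32 and 33 days after it, so that as labelled day and genotype cannot be told apart. The days rise by 1 from each sample to the next, and whether they are true days is not known here. The labels name neither the altered part of Falcor nor whether each sample was a separate animal, so p-values reflect the spread among these samples alone, which could be technical. No sample without naphthalene was analysed here.

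The Falcor probe set (gene symbol 9030622O22Rik), read as a check of the labels, was higher on arrays with the Falcor-null label. Its log2 signals were 4.69, 5.01 and 5.45 in wild type and 6.82, 6.34 and 6.32 on the others, a log2 difference of 1.44 (SE 0.21, limma adjusted p 0.0423). Whether the probe set falls inside what was altered is unknown here, and an exchange of the group labels, which would turn every sign below, was not tested. All differences below are Falcor-null label minus wild type, and their sign rests on the labels. Markers of the labelled tissue were present, with the club cell marker Scgb1a1 at 13.55 to 13.63 and the alveolar type 2, alveolar type 1 and endothelial lists averaging between 10.2 and 11.9 per array.

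Detoxification in the lung proceeds in steps. Cytochrome P450 enzymes make reactive intermediates from compounds such as naphthalene. Epoxide hydrolases add water to epoxides, glutathione S-transferases attach glutathione, and sulfotransferases and UDP-glucuronosyltransferases attach sulfate and glucuronic acid. Aldehyde dehydrogenases and aldehyde oxidases turn aldehydes, among them products of lipid peroxidation, into acids, and flavin-containing monooxygenases add oxygen to nitrogen and sulfur atoms. Club cells are rich in many of these enzymes, and several of the genes are targets of the transcription factor Nrf2, which binds the antioxidant response element.

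Of the pi-class transferase genes on mouse chromosome 19, Gstp3 had the largest difference of the 56 genes, with the opposite sign to Gstp1 and to the probe set annotated to Gstp2, though none of the 3 passed the test. The aldehyde oxidase gene Aox3 had the smallest p of the 56. Their promoters are shown for that reason, as the 250 bases before the start in RefSeq on build GRCm38.p6, read 5′ to 3′ on the gene's strand. Capitals mark matches, on either strand, to 2 forms of the antioxidant response element core, TGACNNNGC and TGAGNNNGC, and to the TATA letters TATAA. The windows are chr19:4037913-4038162 (minus strand) for Gstp1, chr19:4042222-4042471 (minus strand) for Gstp2, chr19:4059448-4059697 (minus strand) for Gstp3 and chr1:58112886-58113135 (plus strand) for Aox3.
Gstp1: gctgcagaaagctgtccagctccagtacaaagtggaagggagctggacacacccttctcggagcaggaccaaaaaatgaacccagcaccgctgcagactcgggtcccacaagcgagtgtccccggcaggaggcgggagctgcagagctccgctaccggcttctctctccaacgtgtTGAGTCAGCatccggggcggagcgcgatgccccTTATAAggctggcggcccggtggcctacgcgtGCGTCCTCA
Gstp2: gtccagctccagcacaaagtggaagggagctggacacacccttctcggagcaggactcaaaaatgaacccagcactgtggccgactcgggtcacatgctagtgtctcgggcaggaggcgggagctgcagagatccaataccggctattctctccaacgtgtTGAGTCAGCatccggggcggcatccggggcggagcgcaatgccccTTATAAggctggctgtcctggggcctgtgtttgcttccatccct
Gstp3: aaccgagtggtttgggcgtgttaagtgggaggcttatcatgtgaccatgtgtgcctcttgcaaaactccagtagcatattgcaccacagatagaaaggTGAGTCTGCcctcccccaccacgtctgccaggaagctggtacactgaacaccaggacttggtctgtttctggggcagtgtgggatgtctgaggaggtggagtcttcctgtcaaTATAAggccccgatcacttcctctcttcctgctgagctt
Aox3: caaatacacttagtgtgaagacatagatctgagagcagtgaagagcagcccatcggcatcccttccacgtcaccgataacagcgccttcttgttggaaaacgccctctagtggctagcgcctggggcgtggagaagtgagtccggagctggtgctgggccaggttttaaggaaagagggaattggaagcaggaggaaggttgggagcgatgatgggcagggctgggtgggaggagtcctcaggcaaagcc

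The Gstp1 and Gstp2 windows held the same letters TGAGTCAGC, from 74 to 66 bases before the start in Gstp1 and from 89 to 81 bases before it in Gstp2, which overlap the AP-1 motif TGAGTCA. Gstp1 held a second match to TGAGNNNGC, on the other strand, from 9 to 1 bases before its start. Gstp3 held TGAGTCTGC instead, from 152 to 144 bases before its start. In a global alignment the Gstp1 and Gstp2 windows were identical in 78.1% of columns, Gstp1 and Gstp3 in 47.7% and Gstp2 and Gstp3 in 45.8%. Promoters were found for 46 of the 56 genes, and 14 of these (30.4%) held at least 1 of the 2 core forms, against 25.7% of the 27025 genes of the table. The form TGAGNNNGC stood in 19.6% of the 46 and 16.3% of all genes, and TGACNNNGC in 10.9% and 11.5%. A match is a description of letters and shows no binding.

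None of the 56 genes passed an adjusted p of 0.05 in limma, against 92 of all 16537 genes (0.556%). Of the 92, 16 were higher (0.0968% of all genes) and 76 lower (0.46% of all genes). At an unadjusted p under 0.05, 9 of the 56 passed (16.1%), 3 higher and 6 lower on arrays with the Falcor-null label, against 13.8% of all genes (6.11% higher and 7.65% lower). The groups did not overlap in 8 of the 56 (14.3%), 2 higher and 6 lower, against 19.5% of all genes (8.96% higher and 10.6% lower). Both shares lay near those of all genes. By sign alone 24 genes were higher and 32 lower, and the median log2 difference was -0.04 beside 0.00 over all genes. The median size of a difference, without its sign, was 0.09 in the 56 and 0.10 over all genes.

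**Figure D1:**
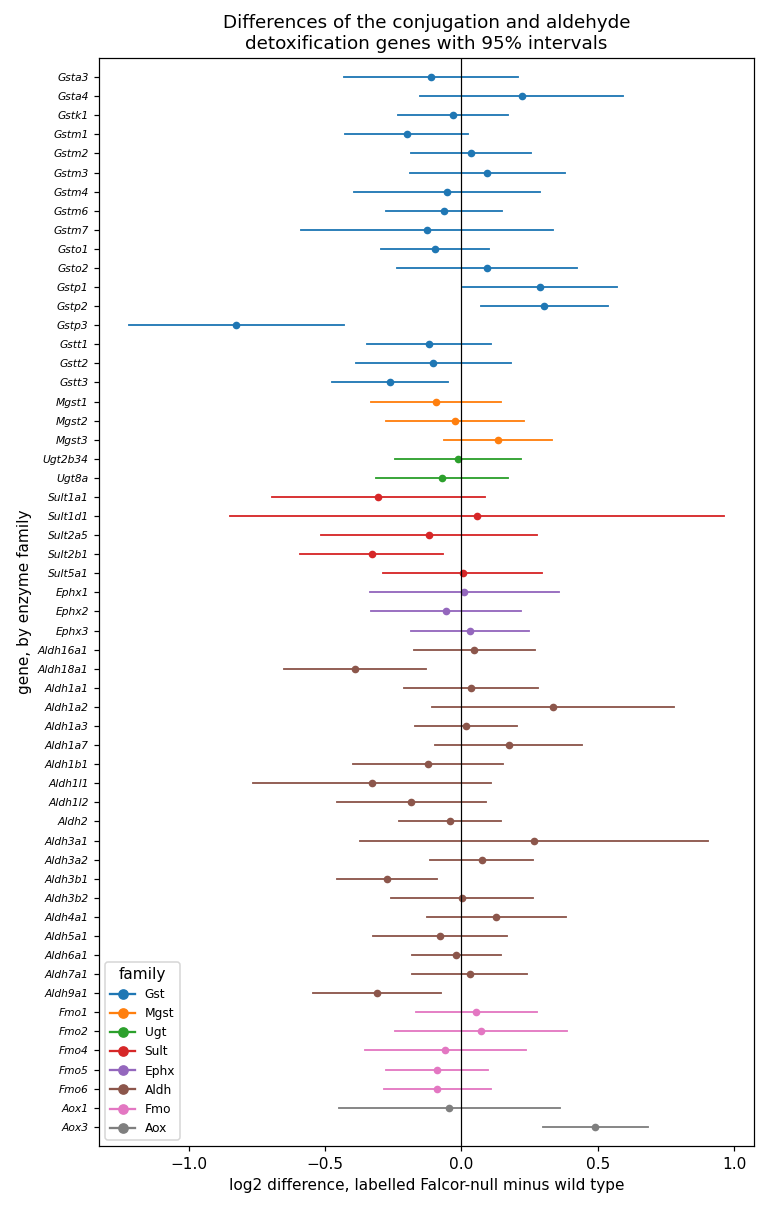
Log2 difference between arrays labelled Falcor-null and wild type for each of the 56 genes (points) with its 95% interval from limma (lines), coloured by enzyme family. Most points lie within 0.4 of zero, with Gstp3 at -0.83 and Aox3 at 0.49 standing farthest out.

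**Figure D2:**
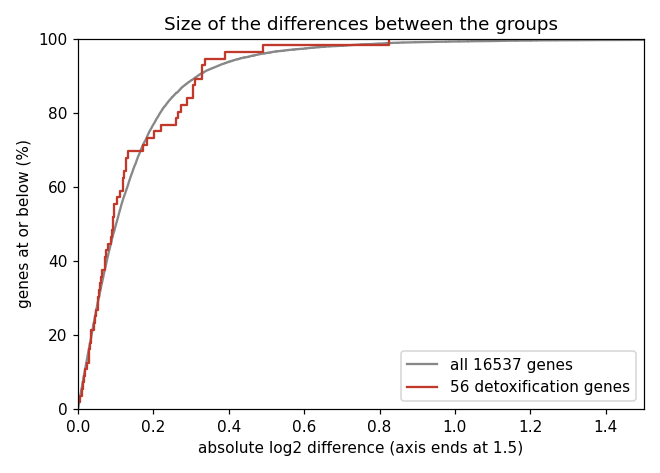
Cumulative percent of genes against the absolute log2 difference between the groups, for the 56 detoxification genes (red) and all 16537 genes (grey). The curves run close together, with medians of 0.09 and 0.10.

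The precision of these values was set by 3 arrays a group. The 95% interval of the difference lay within 1.5-fold in either direction for 45 of the 56 genes (80.4%) and for 85.6% of all genes, and within 2-fold for 55 of the 56 (98.2%) and 97.0% of all genes. Gstp3 was the gene whose interval reached past 2-fold. Of the 56 genes, 17 stood below the 30th percentile of mean signal, as did 4961 of all 16537 genes. Among the 17 were Gstm7, Gsto2, Ugt8a, Sult2b1, Ephx2, Ephx3, Aldh1a3, Aldh1b1, Aldh3b2, Aldh5a1 and Fmo4. A difference can be hidden at low signal, also where the interval is narrow. A gene that did not pass is therefore not described as equal between the groups, also where its interval is not printed. In whole lung, fewer cells of a type and less RNA per cell cannot be told apart.

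Aox3, a molybdenum-containing oxidase of aldehydes and nitrogen heterocycles, was higher on every array labelled Falcor-null. Its log2 signals were 8.85, 8.90 and 9.02 in wild type and 9.34, 9.42 and 9.49 on arrays with the Falcor-null label. The groups did not overlap, and the gap between them exceeded the range within either. The log2 difference was 0.49 (SE 0.08, 95% interval 0.30 to 0.68), or 1.40-fold, with a limma adjusted p of 0.0653. This p crossed 0.05 in 3 alternatives, at 0.0264 with an intensity trend in the variance model, 0.0422 without genes below the 30th percentile of mean signal and 0.0319 without genes below the median, and it lay between 0.110 and 0.176 when any 1 array was left out.

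Aox1, the neighbouring aldehyde oxidase gene, read 8.15, 7.71 and 7.47 in wild type and 7.65, 7.92 and 7.63 on the others. The groups overlapped, with a log2 difference of -0.04 (95% interval -0.45 to 0.36, limma adjusted p 0.944). The difference Aox3 minus Aox1 within an array averaged 1.15 ± 0.42 in wild type and 1.68 ± 0.18 on arrays with the Falcor-null label (SD, n = 3 each; exact permutation p 0.2, two-sided). With 3 arrays against 3, the smallest p such a test can give is 0.1. This pair and the pair of Gstp genes below were chosen after their values were seen.

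Gstp3, a pi-class glutathione transferase gene, had the largest difference of the 56. Its log2 signals were 9.26, 8.86 and 9.11 in wild type and 8.19, 8.58 and 7.99 on arrays with the Falcor-null label. All 3 of the latter lay below the lowest wild-type array. The log2 difference was -0.83 (SE 0.17, 95% interval -1.22 to -0.43), 1.77-fold lower, with a limma adjusted p of 0.0956.

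Gstp1, the abundant pi-class enzyme that conjugates electrophiles and is a known Nrf2 target, read 10.35, 10.75 and 10.54 in wild type and 10.72, 10.98 and 10.80 on arrays with the Falcor-null label. The groups overlapped, since wild type replicate 2 lay above Falcor-null replicate 1. Its log2 difference was 0.29 (95% interval 0.01 to 0.57, limma adjusted p 0.354). The probe set annotated to Gstp2 read 9.39, 9.49 and 9.62 against 9.65, 9.85 and 9.89. The groups did not overlap, by a narrow margin, and the log2 difference was 0.30 (95% interval 0.07 to 0.54, limma adjusted p 0.240). The place of this probe set is uncertain. Gstp2 lies on chromosome 19, but the probe set's identifier stands between those of Traf5 and Rcor3 on chromosome 1, where RefSeq lists the pseudogene Gstp-ps. Pi-class copies resemble one another, so that signal cannot be assigned to 1 copy with certainty.

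Within an array, Gstp3 minus Gstp1 was -1.09, -1.88 and -1.43 in wild type and -2.53, -2.39 and -2.82 on arrays with the Falcor-null label. The groups did not overlap, and the difference between their means was -1.11 (exact permutation p 0.1, two-sided, the smallest possible). The ratio of the 2 signals thus differed between the groups by more than it did among arrays of a group, which says nothing of which of the 2 genes moved.

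**Figure D3:**
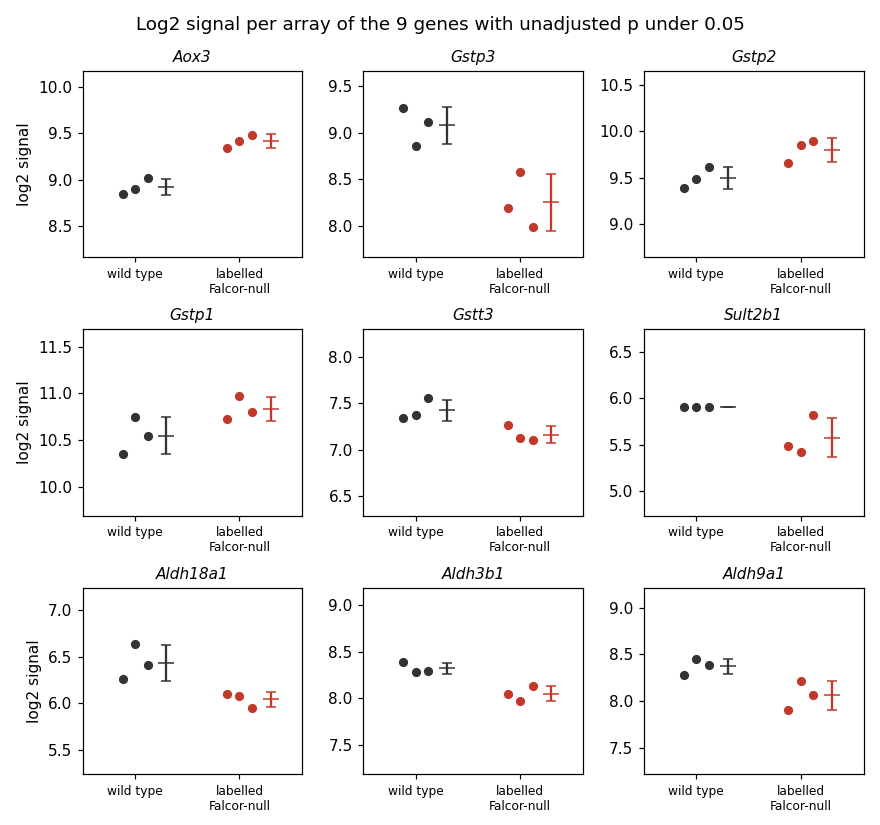
Log2 signal on each array for the 9 genes with an unadjusted p under 0.05, with wild type in black and arrays labelled Falcor-null in red; bars are the mean ± SD of 3 arrays and each vertical axis spans 2 log2 units around the gene's mean. Aox3 and Gstp2 are higher without overlap, Gstp1 is higher with overlap and the other 6 genes are lower without overlap.

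Of the remaining Gst genes, 4 were higher and 10 lower by sign, with log2 differences between -0.26 and 0.22. Gstt3, a theta-class gene, read 7.34, 7.38 and 7.55 in wild type and 7.27, 7.12 and 7.10 on arrays with the Falcor-null label. The groups did not overlap, by a narrow margin, and the difference was -0.26 (95% interval -0.47 to -0.05, limma adjusted p 0.268). Its theta-class relative Gstt1 gave -0.12 (95% interval -0.35 to 0.11) and Gstt2 gave -0.10 (95% interval -0.39 to 0.18).

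The mu-class gene Gstm1, whose product conjugates epoxides, read 8.99, 8.91 and 8.71 against 8.68, 8.74 and 8.59. The highest array labelled Falcor-null lay just above the lowest wild-type array, and the difference was -0.20 (95% interval -0.43 to 0.02, limma adjusted p 0.416). Gstm2 gave 0.04 (95% interval -0.18 to 0.25), Gstm4 gave -0.05 and Gstm7 gave -0.13 (95% interval -0.59 to 0.33). Gstm3 and Gstm6 stood below the 4th percentile of mean signal, where a difference can be hidden. The mu-class genes lie in one cluster on chromosome 3 and resemble one another, and their probe sets may share signal.

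The alpha-class gene Gsta4, whose enzyme removes the lipid peroxidation product 4-hydroxynonenal, read 9.63, 9.20 and 9.20 in wild type and 9.83, 9.38 and 9.49 on the others. The groups overlapped through wild type replicate 1, and the difference was 0.22 (95% interval -0.15 to 0.59, limma adjusted p 0.592). Gsta3 gave -0.11 (95% interval -0.43 to 0.21). The omega-class gene Gsto1, which reduces dehydroascorbate, gave -0.10 (95% interval -0.30 to 0.10), Gsto2 gave 0.09 and the mitochondrial and peroxisomal Gstk1 gave -0.03. The membrane-bound transferases gave -0.09 for Mgst1, -0.02 for Mgst2 and 0.13 for Mgst3, with adjusted p-values of 0.545 or more.

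The sulfotransferases had the largest median standard error of the 8 families, 0.17 against 0.11 over the 56 genes. Sult2b1, which sulfates cholesterol and pregnenolone, read 5.91, 5.90 and 5.91 in wild type and 5.48, 5.42 and 5.82 on arrays with the Falcor-null label. All 3 of the latter lay lower, with a difference of -0.33 (95% interval -0.59 to -0.07, limma adjusted p 0.256), at a mean signal in the 25.9th percentile of all genes. Sult1a1, the phenol sulfotransferase, read 9.34, 8.83 and 8.83 against 8.75, 8.46 and 8.87, with a difference of -0.31 (95% interval -0.70 to 0.08). Wild type replicate 1 stood above the other 5 arrays, and without it the difference was -0.14.

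Sult1d1, a sulfotransferase of catecholamines and other phenols, had the widest interval of the 56. It read 6.72, 6.12 and 5.10 in wild type and 5.99, 6.43 and 5.69 on arrays with the Falcor-null label. The wild-type arrays enclosed the others, and the interval of the difference of 0.06 ran from -0.85 to 0.96. Without wild type replicate 3 the difference was -0.38 (limma adjusted p 0.591). Sult5a1 gave 0.00 (95% interval -0.29 to 0.30), and Sult2a5 gave -0.12 at a mean signal below the 1st percentile of all genes. Of the Ugt genes, Ugt2b34 (-0.01) stood below the 2nd percentile and the ceramide galactosyltransferase Ugt8a gave -0.07 (95% interval -0.32 to 0.17).

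Epoxide hydrolases, which act on naphthalene oxide and related epoxides, differed by -0.06 to 0.03. The microsomal enzyme gene Ephx1 read 9.92, 9.63 and 9.57 in wild type and 9.95, 9.45 and 9.76 on arrays with the Falcor-null label. The wild-type arrays lay inside the range of the others, and the difference was 0.01 (95% interval -0.34 to 0.36, limma adjusted p 0.988). The soluble enzyme gene Ephx2, which acts on fatty acid epoxides, gave -0.06 (95% interval -0.33 to 0.22) and Ephx3 gave 0.03 (95% interval -0.18 to 0.25).

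Among the 19 aldehyde dehydrogenase genes 10 were higher and 9 lower by sign, and none passed in limma over all genes. An unadjusted p under 0.05 was reached by 3 (15.8%), all lower. The share over all genes was near this, at 13.8% (6.11% higher and 7.65% lower). Aldh18a1, the first enzyme of proline synthesis from glutamate, read 6.26, 6.64 and 6.41 in wild type and 6.10, 6.08 and 5.95 on arrays with the Falcor-null label. The groups did not overlap, and the difference was -0.39 (95% interval -0.65 to -0.13, limma adjusted p 0.194). Aldh9a1, which acts in carnitine synthesis, read 8.28, 8.45 and 8.38 against 7.90, 8.22 and 8.07, with the groups narrowly apart. Its difference was -0.31 (95% interval -0.55 to -0.07, limma adjusted p 0.240).

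Aldh3b1, which oxidises aldehydes from lipid peroxidation, read 8.39, 8.28 and 8.29 in wild type and 8.04, 7.97 and 8.13 on arrays with the Falcor-null label. The spread within each group was small and the groups did not overlap. The difference was -0.27 (95% interval -0.46 to -0.09, limma adjusted p 0.199). Its relative Aldh3b2 gave 0.00 (95% interval -0.26 to 0.26). Aldh3a1, an aldehyde dehydrogenase best known from the cornea, read 6.26, 6.08 and 5.48 against 6.61, 5.69 and 6.31. The groups overlapped, and the interval of its difference of 0.27 ran from -0.37 to 0.90. Aldh3a2, the fatty aldehyde dehydrogenase, gave 0.07 (95% interval -0.12 to 0.26).

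The genes whose enzymes turn retinaldehyde into retinoic acid did not pass. Aldh1a1 read 11.72, 11.50 and 11.36 in wild type and 11.59, 11.59 and 11.50 on arrays with the Falcor-null label. The latter lay inside the wild-type range, and the difference was 0.03 (95% interval -0.21 to 0.28, limma adjusted p 0.925). Aldh1a2, the enzyme of the mesenchyme and mesothelium, read 7.34, 7.85 and 7.72 against 8.15, 8.17 and 7.60. Falcor-null replicates 1 and 2 stood above every wild-type array and Falcor-null replicate 3 did not, with a difference of 0.34 (95% interval -0.11 to 0.78, limma adjusted p 0.490). Aldh1a3 gave 0.02 (95% interval -0.17 to 0.20) at a mean signal in the 13.0th percentile of all genes. The club cell enzyme Aldh1a7, not counted among these retinaldehyde enzymes, gave 0.17 (95% interval -0.10 to 0.44).

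The mitochondrial acetaldehyde dehydrogenase Aldh2 read 10.91, 10.84 and 10.80 in wild type and 10.85, 10.87 and 10.71 on arrays with the Falcor-null label. The groups overlapped, and the interval ran from -0.23 to 0.15 around a difference of -0.04. The folate enzyme gene Aldh1l1 read 7.01, 6.91 and 7.62 against 6.83, 7.005 and 6.72, so that wild type replicate 3 stood apart. Its difference of -0.33 (95% interval -0.76 to 0.11) was -0.11 without that array. Its mitochondrial relative Aldh1l2 gave -0.18 (95% interval -0.46 to 0.09) at a mean signal below the 10th percentile. The other 6 Aldh genes (Aldh1b1, Aldh4a1, Aldh5a1, Aldh6a1, Aldh7a1 and Aldh16a1), among them enzymes of proline, lysine, valine and GABA breakdown, lay between -0.12 and 0.13.

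Of the flavin-containing monooxygenases none differed by more than 0.09 in either direction. Fmo2, the main member of the family in lung, read 12.01, 11.78 and 11.57 in wild type and 11.69, 11.86 and 12.02 on arrays with the Falcor-null label. The groups overlapped, and the difference was 0.07 (95% interval -0.24 to 0.39, limma adjusted p 0.866). Fmo1 read 10.69, 10.46 and 10.58 against 10.75, 10.60 and 10.54, a difference of 0.05 (95% interval -0.17 to 0.28). Fmo4 gave -0.06, Fmo5 gave -0.09 (95% interval -0.28 to 0.10) and Fmo6 gave -0.09 at a mean signal below the 2nd percentile. For the 5 Fmo genes the interval stayed within 1.5-fold.

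**Figure D4:**
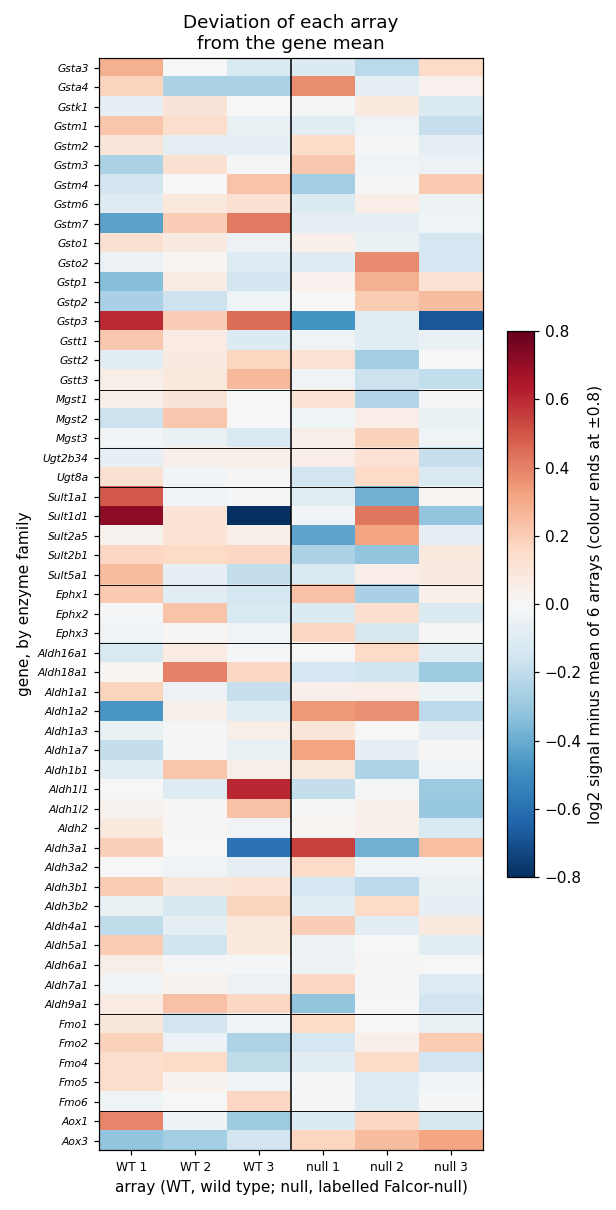
Deviation of each array (columns) from the gene's mean over the 6 arrays for the 56 genes (rows, by enzyme family), with red above and blue below the mean and the colour ending at 0.8 log2 units. Gstp3 and Aox3 divide at the line between the groups, whereas Sult1d1, Aldh3a1 and Aldh1l1 differ mostly among arrays of a group.

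Wild type replicate 1 was the highest of its group for 24 of the 56 genes (42.9%; 38.0% of all genes) and the lowest for 23 (41.1%; 31.5% of all genes). Falcor-null replicate 2 was the highest of its group for 25 (44.6%; 36.4% of all genes), and Falcor-null replicate 3 the lowest for 26 (46.4%; 39.0% of all genes). No array was tested as particular to these genes. Wild type replicate 1 was the highest of its group for Aldh1a1, Aldh3a1, Sult1d1, Ephx1, Gsta3, Gsta4 and Fmo2, and wild type replicate 3 the lowest, genes that were picked after their values were seen. Club cell markers averaged 10.35 to 10.69 in wild type and 10.35 to 10.70 on arrays with the Falcor-null label, and 4 of the 8 were higher and 4 lower, none passing in limma.

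Markers of other cell types also gave lower or higher signals by group, and their part in the differences above was not tested. Over all 16537 genes 0.556% passed in limma, 0.0968% higher and 0.46% lower, so a list with none passing is no contrast to them. By sign 8401 of all genes were higher and 8136 lower. All 7 B and plasma cell markers were lower on arrays with the Falcor-null label, 4 of them passing in limma, with list means of 8.10 to 8.37 in wild type and 7.01 to 7.19 on the others. All 8 T and NK cell markers were lower, 3 passing, with list means of 7.09 to 7.26 and 6.33 to 6.51. All 8 alveolar macrophage markers were lower, none passing, with list means of 8.83 to 9.46 and 8.18 to 8.88, and all 7 neutrophil markers were lower, none passing, with list means of 7.29 to 8.64 and 6.56 to 6.84. Monocyte and interstitial macrophage markers were lower in 9 of 10, none passing, at 7.98 to 8.18 and 7.55 to 7.73. Goblet cell markers were lower in 8 of 9, with Itln1 passing, at 6.03 to 6.85 and 5.71 to 5.81. Of these 9, 5 stood below the 30th percentile of mean signal.

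Markers of hepatocytes, which are rich in many of these enzymes, were lower in 7 of 8, with Alb (log2 difference -1.52, limma adjusted p 0.0180) and Ttr (-0.63, adjusted p 0.0371) passing. The hepatocyte list means were 5.89 to 5.92 in wild type and 5.07 to 5.33 on arrays with the Falcor-null label. Signal was low for most of this list, with 6 of the 8 below the 30th percentile of mean signal. Fibroblast (9 of 10), smooth muscle (7 of 7, with Tagln passing), alveolar type 1 (7 of 8) and endothelial (8 of 9) markers were mostly higher by sign. Of the ciliated cell markers 6 of 10 were higher, of the basal cell markers 3 of 3 and of the alveolar type 2 markers 5 of 10, none passing. All 3 basal cell markers stood below the 30th percentile of mean signal.

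The partner genes of these enzymes, in 7 lists with 87 measured genes, likewise held none that passed in limma, against 0.556% of all genes. At an unadjusted p under 0.05, 12 of the 87 passed (13.8%, the same share as over all genes), 5 higher and 7 lower. By list, the genes higher and lower by sign and the median log2 difference were 6, 10 and -0.05 for glutathione supply and salvage, 3, 5 and -0.01 for sugar and sulfate donors, and 3, 4 and -0.05 for other conjugating enzymes. They were 10, 8 and 0.01 for carbonyl and quinone reductases, 2, 7 and -0.06 for export pumps, 10, 6 and 0.02 for xenobiotic regulators, and 9, 5 and 0.06 for the retinoid pathway.

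The partners named here and below are the 2 of each list with the smallest p, and Papss2, so they do not stand for their lists. Dhrs9, a retinol dehydrogenase of the retinoid list, had the smallest p of the partners. It read 6.31, 6.21 and 6.57 in wild type and 5.46, 5.73 and 5.33 on arrays with the Falcor-null label, without overlap (log2 difference -0.85, 1.81-fold lower, limma adjusted p 0.0526). Dhrs3, which reduces retinaldehyde, gave -0.23 (adjusted p 0.334). Slc7a11, the cystine carrier that feeds glutathione synthesis, read 5.50, 6.71 and 6.02 against 4.46, 4.69 and 4.54. The groups were far apart, with a wide spread in wild type, and the log2 difference was -1.51 (2.85-fold lower, limma adjusted p 0.0748). Its mean signal was low, in the 17.8th percentile of all genes, and that of Dhrs9 was in the 29.6th. Chac2, a glutathione-degrading enzyme, gave 0.25 (limma adjusted p 0.309) at a mean signal in the 29.4th percentile.

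Among donors, Papss1, which makes the sulfate donor used by sulfotransferases, read 8.08, 8.09 and 7.99 against 8.46, 8.31 and 8.24. The groups did not overlap, at a log2 difference of 0.28 (limma adjusted p 0.218), while its relative Papss2 gave -0.30 (adjusted p 0.397). The carrier gene Slc35b3 of the same list gave -0.16 (adjusted p 0.379). Among other conjugating enzymes, the methyltransferases Inmt and Nnmt gave 0.29 (adjusted p 0.361) and -0.24 (adjusted p 0.449). Among reductases, Akr1c14 gave -0.43 (adjusted p 0.226) and Hsd11b1, which activates glucocorticoids, gave 0.34 (adjusted p 0.272). The pumps Abcc6 (0.27) and Abcb1b (-0.55) had limma adjusted p-values of 0.250 and 0.251. The regulators Bach1 (-0.18), a repressor at antioxidant response elements, and Hnf4a (0.24) had adjusted p-values of 0.389 and 0.442. Signal was low for Nnmt, Abcc6, Abcb1b and Hnf4a, all below the 30th percentile of mean signal. Of the 87 partner genes, 23 stood below it.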

How the data were processed

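The authors deposited 1 log2 signal for each probe set and array. Their processing notes list the tools oligo, RMA and limma and give no versions. RMA makes the arrays' distributions alike, so a shift of most genes would be largely removed. The deposited arrays were not fully alike. Their medians over all probe sets were 6.72 to 6.74 in wild type and 6.69 to 6.70 on arrays with the Falcor-null label. Their lowest values were 3.19 to 3.22 and 2.09 to 2.42. Correlations between arrays over all probe sets were 0.982 to 0.986 within a group and 0.970 to 0.976 between the groups. The cause of these differences was not tested. A difference in handling between the groups could not be told apart from the label. Filters and genome build are not given in the sources used here. Detection calls were not used, so signal over background is unknown, and precision is limited by how many arrays there are.

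Of 24173 probe sets, 17476 had 1 symbol in the platform annotation, 1308 several and 5389 none. The probe set with the highest mean stood for a gene. All 56 genes had a RefSeq entry (GRCm38.p6), from which the promoters came. In 9 further probe sets with several symbols, at least 1 had such a name; these were left out.

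The groups were compared with lmFit and eBayes (limma 3.58.1, R 4.3.3), two-sided, without covariates, with Benjamini-Hochberg adjustment over 16537 genes, after tests on simulated data. The threshold was an adjusted p of 0.05. Members and lists were chosen with earlier results of these data known. Genes named were those with the 15 smallest p-values and a set chosen by role. Named too were, per family, the 2 highest in mean and the 2 largest in difference. Of the partners, the 2 with the smallest p in each list were named, and Papss2. Others are named to account for every gene. Alignments used Biopython 1.88 and figures matplotlib 3.10.9 (Python 3.11.15). Alternatives were the replicate block, centring, a second quantile normalization, variance models, array weights, dim-gene filters, probe-set rules, a threshold of 0.1 and leaving out each array.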

Additional observations from a re-analysis of the deposited data

How the results depend on the processing

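Under the alternatives run, the number of the 56 genes passing was 0 except that Aox3 passed with an intensity trend, without genes below the 30th percentile and without genes below the median of mean signal (1 each, all with its log2 difference of 0.49), and that Aox3 and Gstp3 passed at an adjusted p of 0.1 (2 genes). With any 1 array left out it was 0 throughout. The number of all genes passing, 92, was 32 with the replicate block and 280 at an adjusted p of 0.1, and ran from 18 to 89 with 1 array left out. Leaving out wild type replicate 2 or 3 gave 26 or 49, and leaving out Falcor-null replicate 1, 2 or 3 gave 24, 18 or 37. Of the partner genes, Dhrs9 passed with an intensity trend (1 gene), Dhrs9 and Slc7a11 at an adjusted p of 0.1 (2 genes), and with 1 array left out the number ran from 0 to 1, Slc7a11 passing without wild type replicate 1. The median difference of the 56 genes was -0.01 (-0.0075) with array medians centred, where the median of all genes moved from 0.00 to 0.03, and ran from -0.06 to -0.01 with 1 array left out. With the replicate block the adjusted p was 0.119 for Aox3 and 0.175 for Gstp3. Arrays with the same number did not deviate together (correlations over genes of 0.02, 0.00 and -0.08), so the numbers are not taken to pair samples.

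Differences near zero changed sign. Centring gave Ugt2b34 0.015, the second quantile normalization gave -0.019 for Aldh1a3, 0.0026 for Aldh2 and 0.0015 for Aox1, and averaged probe sets gave 0.012 for Aldh2 and -0.0028 for Aldh3a2. With 1 array left out the range was -0.22 to 0.0012 for Gsta3, -0.030 to 0.093 for Gstm2, -0.17 to 0.00089 for Mgst1, -0.074 to 0.077 for Ugt2b34, -0.38 to 0.43 for Sult1d1, -0.089 to 0.13 for Sult5a1, -0.10 to 0.14 for Ephx1, -0.14 to 0.041 for Ephx2, -0.045 to 0.10 for Ephx3, -0.051 to 0.13 for Aldh1a1, -0.029 to 0.057 for Aldh1a3, -0.072 to 0.0079 for Aldh2, -0.0066 to 0.11 for Fmo1, -0.034 to 0.18 for Fmo2 and -0.20 to 0.14 for Aox1. The cause of these changes was not tested. The remaining 24 of 39 named genes kept their sign in every run but averaged probe sets for Aldh3a2, among them Aox3 (0.45 to 0.54) and Gstp3 (-0.99 to -0.69) with 1 array left out. Log2 signals carry no counts, so depth sets no limit here beyond the number of arrays.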

Other observations

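The 9 probe sets annotated to several symbols, of which at least 1 was a conjugation or aldehyde detoxification gene, were tested over every probe set in limma. None passed an adjusted p of 0.05, and 2 had an unadjusted p under 0.05, which 13.8% of the 16537 genes with 1 symbol also had. Their log2 differences ran from -0.25 to 0.28, with a lowest adjusted p of 0.314. Of the 9, 1 was higher on every array labelled Falcor-null than on any wild-type array, as were 8.96% of the genes with 1 symbol. Counts this small are not read against those shares. They are not named, since their signal belongs to no single gene.

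Of the 3 genes with a second probe set, Aldh2, Aldh3a2 and Aldh6a1, the dimmer one gave log2 differences of 0.07, -0.08 and -0.17 beside -0.04, 0.07 and -0.02 for the brighter, all with adjusted p-values of 0.647 or more over the probe sets with 1 symbol.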
